A study of Ipomoea batatas with 12 samples.

Results

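The comparison described here sets the storage root flesh of a natural sweetpotato mutant (MT) against that of the wild-type line M1-125 (WT) from which it arose. It takes 6 of the 12 RNA-seq libraries of the study, 3 from MT flesh and 3 from WT flesh; the other 6 are from the skin of the same lines. The flesh libraries were chosen by their labels, and no measured value entered that choice. Plants of both lines were grown on the same farm, their roots were sampled 120 days after planting, and all samples carry the treatment label normal. MT is 1 line, the labels do not state its lesion, and they call the replicates biological but do not tell whether separate plants were used. The p-values therefore measure the spread between these samples, which may in part be technical.

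Sweetpotato (Ipomoea batatas) is a hexaploid crop whose roots swell into storage organs. The flesh is mostly parenchyma that stores starch and soluble sugars, while the skin is a periderm of corky cells whose pigments give the root its outer colour. The series title asks about regulators of that colour, so the flesh of the mutant shows how far the lines differ below the skin. No source used here pairs the gene identifiers with names. Members of pathways and markers of cell types could not be looked up, and genes are described by their level and by their identifier. An identifier holds a number, a letter and a running number, which were read as chromosome, haplotype and order; this reading is an assumption.

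Of 225111 genes in the table, 80351 passed the low-count filter and were tested, and 73826 of the others had no count in any library. The filter looked at all 12 libraries, so 10996 tested genes would have failed it on the flesh libraries alone; these held 241 of the genes that passed the test below. Flesh libraries held 15893593 to 20276417 counts. The unit of level is CPM (counts per 1e6 counts) after TMM scaling, which corrects library totals for differences in composition; 3 counts in a flesh library correspond to 0.13 to 0.178 CPM. Among the genes at 10 CPM or more, pairs of libraries of 1 flesh group had correlations across genes of log2 CPM between 0.967 and 0.974, and pairs across the groups between 0.841 and 0.857. By these correlations no flesh library stood apart from its group, and no batch is given in the labels.

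MT flesh differed from WT flesh mainly by genes at a higher level. The quasi-likelihood test of edgeR, with p adjusted by Benjamini-Hochberg and a threshold of 0.05, called 3985 genes different, which is 4.96% of those tested. Of these, 3016 were higher in MT (3.75% of tested genes) and 969 were lower (1.21%). The CPM ranges of the groups did not overlap for 2997 of the higher and 963 of the lower genes, while over all tested genes the groups did not overlap for 24.7%. The excess of higher genes rested in part on the scaling and on the libraries in the fit. A fit of the flesh libraries alone gave 3582 higher and 1896 lower genes, 65.4% higher. With library totals alone 2414 genes were higher and 1708 lower, so the higher share went from 75.7% to 58.6%. Leaving out 1 library lowered the count of lower genes by over 1.5 times in 5 of 6 cases, with 541 genes without MT flesh replicate 1 or replicate 2 and 507 without replicate 3. The count was 578 without WT flesh replicate 2 and 616 without WT flesh replicate 3.

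Rises were also larger than falls. By fitted values, the median log2 fold change was 1.14 for the higher genes (2.21-fold) and -0.80 for the lower genes (1.74-fold). The group of higher genes reached 8-fold or more in 533 cases, 17.7% of it, and a further 373 lay between 4-fold and 8-fold. Among the lower genes 87, or 9.0%, fell 8-fold or more, and 332, or 34.3%, fell less than 1.5-fold. At 2-fold or more there were 1702 higher genes (2.12% of tested genes) and 357 lower genes (0.444%). With library totals alone these counts were 1465 and 509, so higher genes led under both scalings. In 128 of the higher genes WT flesh held no count, and in 25 of the lower genes MT flesh held none. Putting these at the bound given by 3 counts over the group left both medians as they were. So few genes with large fitted changes could hardly move a median, so this is no check of the sizes.

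**Figure D1:**
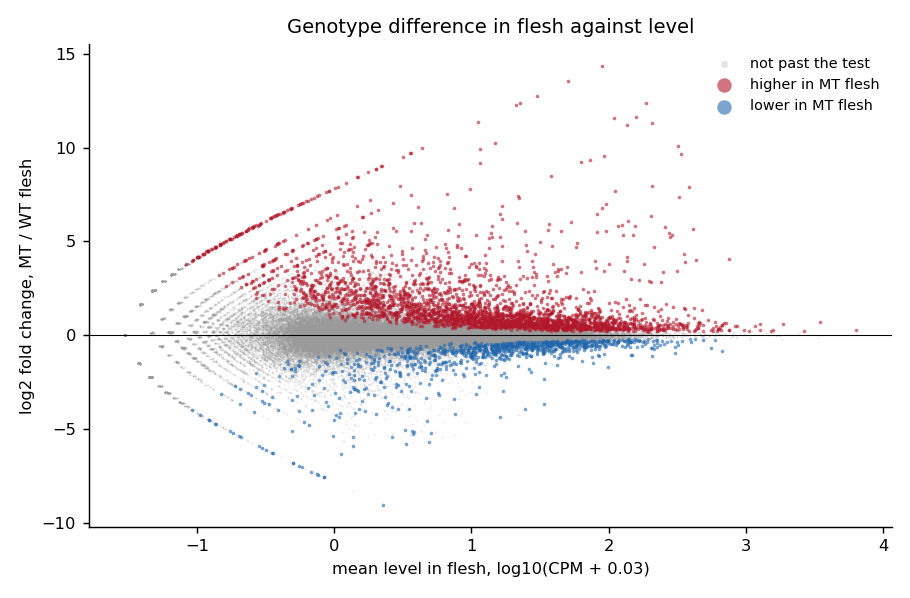
Each point is a tested gene, with its mean level in flesh (log10 of CPM plus 0.03) on the x axis and its fitted log2 fold change, MT over WT flesh, on the y axis; red and blue points passed the test. The 3016 higher genes reach farther from 0 than the 969 lower genes, above all at high levels, and the straight rows of points at low levels are genes with few or no counts in a group.

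The genes that passed the test held a sizeable part of the transcript pool. The higher genes took 11.7%, 11.9% and 11.8% of the counts in the WT flesh libraries and 19.4%, 19.0% and 19.5% in the MT flesh libraries. Their share was 11.8% ± 0.0816 in WT and 19.3% ± 0.285 in MT (SD, n = 3). The lower genes fell from 4.70% ± 0.0165 to 2.96% ± 0.0147 of the counts (SD, n = 3). These are shares of library totals and do not depend on TMM, but the genes were chosen by this same contrast, so they describe its size and are no test of it. In skin, whose libraries entered the choice through the filter, the scaling and the common estimate of the spread but not the contrast, the higher genes held 20.5% ± 0.214 of the counts in WT and 22.9% ± 0.0846 in MT (SD, n = 3). For the higher genes as a whole, the WT skin share was thus slightly above the share in MT flesh. In bulk tissue, fewer cells of a type and less RNA per cell cannot be told apart.

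The first 100 rises and the first 100 falls by difference in mean CPM carried 43.4% and 44.3% of the summed difference of their direction. These 100 rises held 3.90% ± 0.0405 of WT flesh counts and 7.24% ± 0.135 of MT flesh counts, and the 100 falls took 2.12% ± 0.00996 and 1.35% ± 0.0118 (SD, n = 3). In skin the 100 rises held 4.43% ± 0.11 (WT) and 5.18% ± 0.0297 (MT; SD, n = 3), both below their share in MT flesh. The 100 falls held 0.723% ± 0.0136 (WT) and 0.629% ± 0.00191 (MT; SD, n = 3) of the skin counts. The rises went from 143 to 1713 CPM, and 65 of them were at least 2-fold. The falls were smaller, with differences of -28.4 to -392 CPM, and 23 of them were at least 2-fold. Both sets held identifiers of all 15 numbers. Number 01 was the commonest among these rises, with 26 of 100, beside 8.81% of tested genes and 10.7% of all higher genes. Number 12 was the commonest among these falls, with 14 of 100, beside 7.67% of tested genes and 19.6% of all lower genes.

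The largest rise in CPM was that of Ibat.Brg_v3.01BG002710, already the third most abundant gene of WT flesh. Its level was 2461, 2693 and 2672 CPM in the WT flesh libraries and 4370, 4132 and 4464 CPM in the MT flesh libraries. The groups did not overlap, and the 6 values rest on 48671 to 84198 counts each. The log2 fold change was 0.73 (SE 0.07), 1.66-fold, with an adjusted p of 5.6e-06 by edgeR's quasi-likelihood test. In skin this gene was much less abundant and lower in MT, with 448 CPM ± 52.6 for WT and 260 CPM ± 2.55 for MT (SD, n = 3). The skin log2 fold change less the flesh log2 fold change was -1.51 (edgeR interaction test, adjusted p = 1.6e-07).

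The gene with the next largest rise, Ibat.Brg_v3.15DG013190, showed a far larger fold change. Its level was 76.8, 85.2 and 96.5 CPM in the WT flesh libraries and 1464, 1336 and 1480 CPM in the MT flesh libraries. Every MT library lay above every WT library, and the gene moved from rank 1345 to rank 19 by mean CPM. The log2 fold change was 4.05 (SE 0.08), 16.6-fold, with an adjusted p of 2.4e-13 by edgeR's quasi-likelihood test. MT flesh thereby stood near the skin, where WT held 1018 CPM ± 65.1 and MT 1490 CPM ± 13.2 of this transcript (SD, n = 3). The rise in skin was smaller, with a log2 fold change of 0.55, and the difference between the tissues was -3.50 (edgeR interaction test, adjusted p = 3.1e-11).

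The largest fall in CPM was that of Ibat.Brg_v3.08DG010750, a gene far more abundant in flesh than in skin. Its level was 898, 877 and 830 CPM in the WT flesh libraries and 468, 491 and 470 CPM in the MT flesh libraries. The groups lay apart, with a log2 fold change of -0.87 (SE 0.1), 1.82-fold lower in MT, and an adjusted p of 3.8e-05 by edgeR's quasi-likelihood test. In skin it was also lower, going from 36.2 CPM ± 7.23 (WT) to 20.8 CPM ± 1.52 (MT; SD, n = 3), a log2 fold change of -0.81. The tissues were not shown to differ in this respect, with a difference of 0.05 between the log2 fold changes (edgeR interaction test, adjusted p = 0.93).

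The other named fall was that of Ibat.Brg_v3.15DG012420. It stood at 735, 653 and 660 CPM in the WT flesh libraries and at 427, 449 and 422 CPM in the MT flesh libraries, again without overlap. The log2 fold change was -0.66 (SE 0.07), 1.58-fold lower in MT, with an adjusted p of 4.4e-05 by edgeR's quasi-likelihood test. In skin WT held 89.6 CPM ± 10.3 and MT 89.9 CPM ± 3.15 (SD, n = 3). The fold change in skin exceeded that in flesh by 0.66 on the log2 scale (edgeR interaction test, adjusted p = 0.0019).

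**Figure D2:**
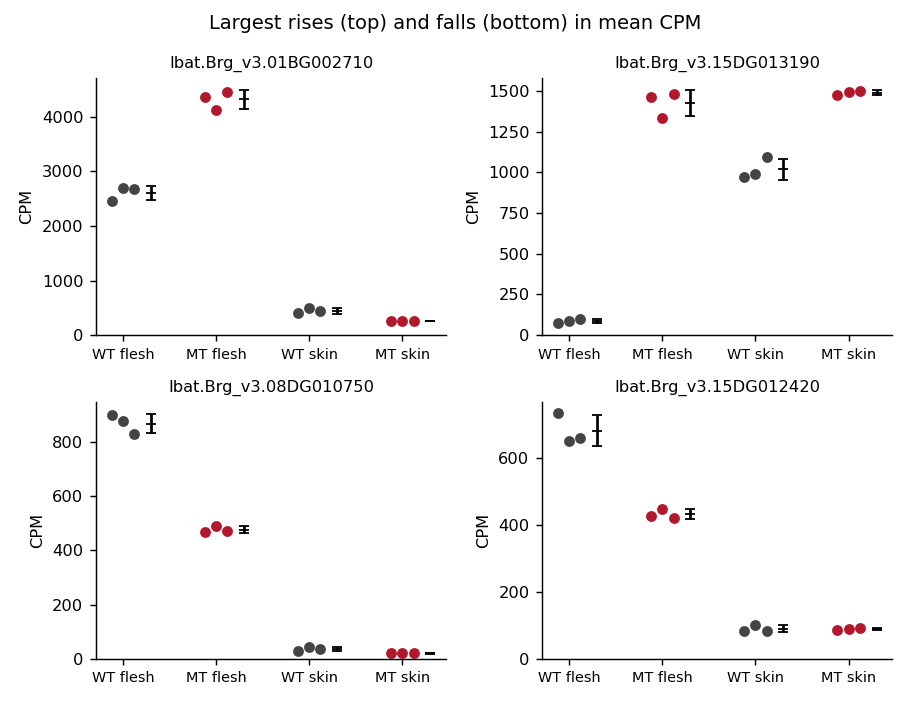
Points are the CPM of each library by line and tissue, and the bar beside them is the mean with its SD (n = 3); each axis starts at 0. The MT flesh libraries lie apart from the WT flesh libraries in all 4 panels, and Ibat.Brg_v3.15DG013190 in MT flesh, at 1427 CPM, is near its level in MT skin, at 1490 CPM.

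The share of genes that passed the test rose steeply with their level. Below 0.3 CPM, where the median count of a gene in a flesh library was 0, 2.13% of 7048 tested genes differed. Of these 7048 genes, 7045 would have failed the filter on the flesh libraries alone. Nearly all of this lowest class was thus tested because of its skin counts, which limits every value given for it. Between 0.3 and 1 CPM 3711 of 15004 genes would have failed. The share that differed was 2.62% of 19828 genes between 1 and 3 CPM and 8.23% of 12097 genes between 10 and 30 CPM. At 100 CPM and over it was 32.8% of 1143 genes, at a median count of 3048. A higher count gives a smaller error, and its part in this rise was not tested. Genes past the test and at least 2-fold apart made up 2.66% of those tested between 3 and 10 CPM, 2.83% between 10 and 30 CPM, 3.02% between 30 and 100 CPM and 6.39% at 100 CPM and over. When the tested genes were divided into 7 classes of equal size by CPM per kb of the deposited gene length, the share went from 1.92% in the lowest class to 14.7% in the highest. By plain CPM it went from 2.27% to 15.04%, with 1.99% in the next-lowest class.

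**Figure D3:**
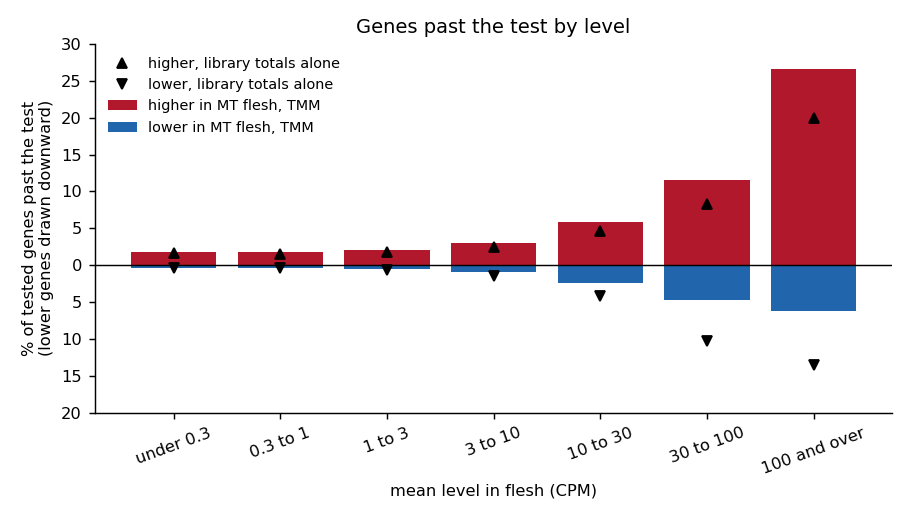
Bars give the percentage of tested genes that were higher (upward) or lower (downward) in MT flesh in 7 classes of mean CPM, and triangles give the same without TMM, from library totals alone. At 100 CPM and over 26.6% were higher and 6.21% lower with TMM; with library totals alone the balance between 30 and 100 CPM turns to more lower than higher genes.

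The higher genes made up 82.7% of the genes past the test below 0.3 CPM, 70.9% between 10 and 30 CPM, 70.9% between 30 and 100 CPM and 81.1% at 100 CPM and over. In the middle of the range this balance depended on the scaling. With library totals alone the higher share was 52.7% between 10 and 30 CPM and 44.8% between 30 and 100 CPM, where 517 genes were lower and 420 higher. At 100 CPM and over higher genes led under both scalings, at 81.1% and 59.5%. Large changes of abundant genes ran almost all one way. At 100 CPM and over 70 genes were at least 2-fold higher and 3 at least 2-fold lower, and the counts with library totals alone were 66 and 4. In that class the 95th percentile of the log2 fold change was 1.37 and the 5th percentile was -0.32, while between 10 and 30 CPM they were 0.68 and -0.50.

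Fold changes of the genes past the test shrank as the level rose. The median log2 fold change of the higher genes was 3.00 between 0.3 and 1 CPM, 1.31 between 3 and 10 CPM and 0.55 at 100 CPM and over. For the lower genes the same classes gave -3.10, -1.12 and -0.36. Below 0.3 CPM the medians were 4.47 and -4.04 as fitted. There 75 of 124 higher genes had no count in WT flesh, and with such genes at their 3-count bound the medians were 2.80 and -2.76. The smallest difference that passed the test fell from 1.84 log2 units below 0.3 CPM to 0.39 between 3 and 10 CPM and 0.19 at 100 CPM and over. A change of less than 2-fold was hence out of reach at the lowest levels. In the top class 19.5% of the genes past the test changed at least 2-fold.

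The spread between replicates narrowed with level in both lines from 0.3 CPM upward. Below 0.3 CPM, where most counts were 0 or near it, the median SD of log2 CPM was 0.37 in WT flesh and 0.41 in MT flesh. Between 0.3 and 1 CPM it was 0.49 and 0.52. Between 10 and 30 CPM it was 0.14 and 0.13, and at 100 CPM and over it was 0.06 and 0.05. Counting error alone gives an SD of 0.42, 0.08 and 0.03 at the median counts of the classes from 0.3 CPM upward just given. Between 10 and 30 CPM and at 100 CPM and over the observed SD was more than 1.5 times that value. At low counts the 2 cannot be compared, since the prior count of 2 narrows the observed SD and is not in the counting value. At 100 CPM and over the SD was larger in WT than in MT for 63.3% of the genes, against 50.7% over all tested genes. The median size of the genotype difference was close to the replicate SD between 0.3 and 3 CPM. At 100 CPM and over it was 0.16, above the median SD of either line. These measures differ in scale, since the difference is between fitted group means and the SD is between single libraries. The size of difference to be had without any effect of genotype was not computed, so this comparison gives no measure of that effect.

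**Figure D4:**
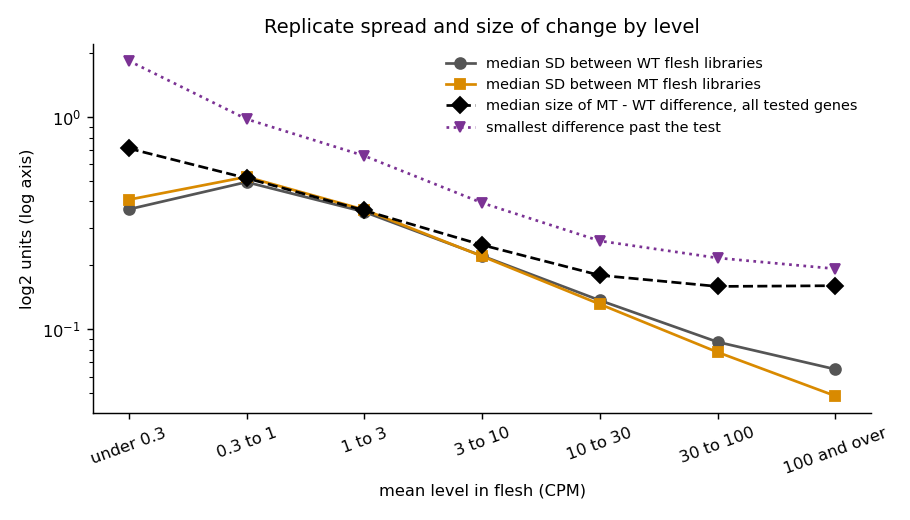
Lines give, for 7 classes of mean CPM and on a log axis of log2 units, the median SD between the 3 libraries of each line, the median size of the MT minus WT difference over all tested genes, and the smallest difference that passed the test. The SD falls from 0.49 in WT between 0.3 and 1 CPM to 0.06 at 100 CPM and over, while the median difference levels off near 0.16.

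Higher genes outnumbered lower genes for every one of the 15 identifier numbers. With library totals alone this held for 14, number 14 being the exception, with 1.83% higher and 2.51% lower. Leaving out number 12, the share of tested genes that were higher ran from 2.29% for number 08 to 4.74% for number 06, and the share that were lower from 0.831% for number 05 to 1.32% for number 14. Number 12 stood outside both ranges, with 365 higher genes (5.92%) and 190 lower genes (3.08%) of 6161 tested, beside 3.75% and 1.21% over the whole table. It supplied 12.1% of all higher and 19.6% of all lower genes from 7.67% of the tested genes. Without it 2651 genes were higher and 779 lower, so the general direction did not rest on it. At 2-fold or more number 12 gave 157 higher and 112 lower genes.

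Numbers 08 and 14 had the fewest rises for their size. Number 08 had 81 higher and 41 lower genes of 3540 tested, and number 14 had 99 higher and 57 lower of 4307. Among number 14 genes at 10 CPM or more, 44 were higher (4.75%) and 45 lower (4.85%), beside 8.72% and 3.28% of all 18303 genes at that level. Number 01, the largest with 7076 tested genes, had 322 higher genes (4.55%), 185 of them at least 2-fold. It also had 80 lower genes (1.13%), 22 of them at least 2-fold. Its share of higher genes was above the 3.75% of the whole table, and its share of lower genes was near the table's 1.21%. Number 07 had the largest median rise, with a log2 fold change of 1.84 among its 173 higher genes, and number 12 had the smallest, 0.89 among 365. Among the lower genes number 12 had the largest median fall, -1.17, and the other numbers lay between -0.58 and -0.85.

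The level of each number was also followed library by library, as the median deviation of its genes from their flesh mean. It was taken relative to the library's median over genes of all numbers, with the same limit on level for both medians. Such values do not depend on the scaling. Over genes at 10 CPM or more, number 12 stood at -0.057, -0.048 and -0.049 in the WT flesh libraries and at 0.055, 0.042 and 0.062 in the MT flesh libraries, on the log2 scale. The difference was 0.104 ± 0.0066 (SE, n = 3 against 3; 1317 genes). It was uneven over the letters of number 12, at 0.227 for letter F (320 genes) and 0.036 (D) to 0.115 (B) for the others. Blocks of other numbers lay between -0.063 and 0.035. Number 14 went the other way, from 0.022, 0.016 and 0.015 in WT to -0.022, -0.032 and -0.014 in MT, a difference of -0.040 ± 0.0055 (SE; 927 genes). The other 13 numbers lay between -0.017 and 0.012. The libraries of the lines did not overlap for 9 of the 15 numbers, 4 of them higher in MT, and with 3 against 3 libraries an exact two-sided permutation test cannot give a p below 0.1. Over all tested genes, most of them of low count, the differences of numbers 12 and 14 were 0.020 and -0.017.

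Letters differed much less than numbers. The share of higher genes ran from 3.53% for letter E to 4.18% for letter F, and the share of lower genes from 1.12% for A to 1.44% for C. The lead of letter F was not seen without number 12, when the letters lay between 3.51% and 3.74% for higher genes, with F at 3.57%, and between 0.963% and 1.25% for lower genes. Within number 12, letter F had 125 higher genes of 1173 tested, or 10.7%, and the other letters 3.62% to 6.36%. The lower genes of number 12 were spread evenly, from 2.56% for letter F to 3.52% for letter C. Genes outside the number-letter blocks changed least often, with 13 higher and 6 lower genes of 926 tested, and they were shorter and of lower level, with a median of 1.18 CPM.

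**Figure D5:**
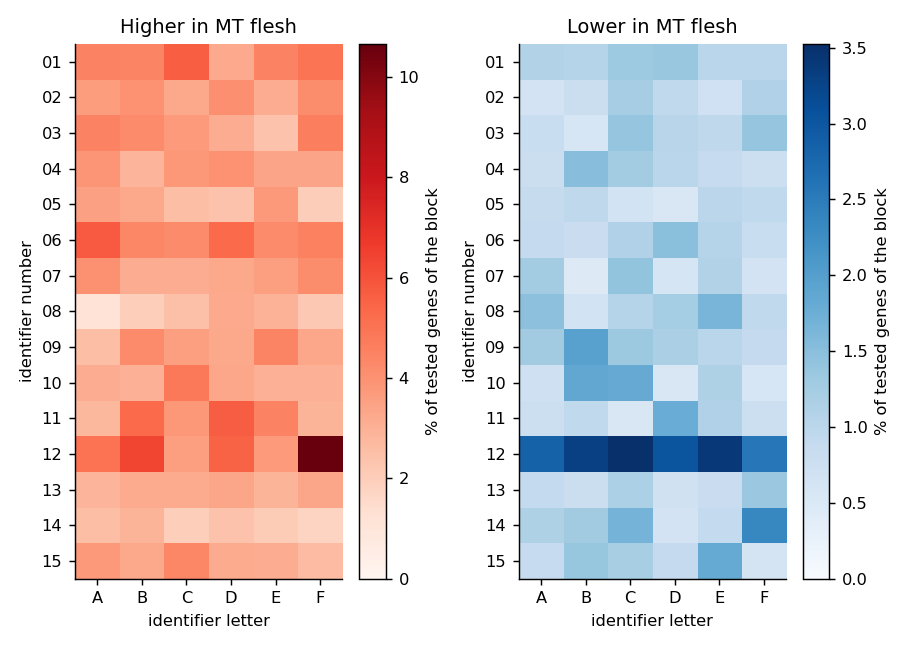
Each cell is 1 of the 90 blocks of identifier number (rows) and letter (columns), and its colour is the percentage of tested genes that were higher (left) or lower (right) in MT flesh, on scales that differ between the panels. Number 12 is the darkest row for lower genes, at 2.56% to 3.52%, and the block of number 12 and letter F is the darkest cell for higher genes, at 10.7%.

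Over the 90 blocks, 88 had more higher than lower genes, and 73 did with library totals alone. Outside number 12 the share of genes past the test ran from 2.61% for block 08A to 7.47% for block 11D. Blocks held 547 to 1426 tested genes, so a block at the low end rests on few changed genes. Block 14F had a higher share of 42.9% among its genes past the test, the lowest of all.

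Higher genes tended to follow each other along the identifiers. Of 3003 higher genes with a next tested identifier in the same block, 407 were followed by another higher gene, or 13.6%, where 3.79% of all next identifiers were higher. With number 12 left out these shares were 12.9% and 3.60%. Where the next tested identifier was the directly following one, 10 further in the running number, 17.4% were higher after a higher gene, beside 4.08% of all such neighbours. Lower genes were followed by a lower gene in 50 of 963 cases, or 5.19%, against 1.21% of all next identifiers. Number 12 supplied most of these, and without it the shares were 2.46%, from 19 of 773 cases, and 1.05%. There were 74 runs of 3 or more higher genes, with 271 genes on 12 of the numbers, and 4 runs of 3 or more lower genes, 3 of them on number 12. The longest run held 10 higher genes in block 01B, with running numbers from 7260 to 7380. Neighbouring identifiers can be copies of a gene or overlap, and how reads were divided among near-identical copies is not given in the sources used here, so runs count identifiers and not independent genes.

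The changes of flesh were compared with those of skin, which share no library with them, though both come from a fit with a common estimate of the spread. In skin 6.85% of tested genes differed between the lines, 3.64% higher and 3.21% lower in MT. Of the genes higher in MT flesh, 29.4% were also higher in MT skin and 7.56% were lower there. The first share went with the size of the rise in flesh from 35.4% of rises under 1.5-fold down to 25.5% of rises of 8-fold or more. The share that was lower in skin went from 15.1% to 0.938% over the same range. For falls the share also lower in skin went from 13.3% of those under 1.5-fold to 33.3% of the 87 at 8-fold or more. The share of falls that was higher in skin went from 16.9% to 1.15%. The smallest difference past the flesh test was 1.84 log2 units below 0.3 CPM and 0.19 at 100 CPM and over. Size classes therefore differed in level as well, and the part of level in these shares was not tested. The genotype difference itself differed between the tissues for 1498 of the higher genes, or 49.7%, and for 340 of the lower genes, or 35.1%, by the edgeR interaction test at an adjusted p of 0.05. Over all tested genes it did so for 4.55%, and among the genes not past the flesh test for 2.38%. The interaction uses the flesh libraries as well, so these counts are not independent of the choice of the genes.

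Genes that rose in MT flesh were, in the median, at 6.08 CPM in WT flesh, 16.0 CPM in MT flesh, 20.5 CPM in WT skin and 24.7 CPM in MT skin. A list of skin-dominant transcripts was made of the 108 identifiers with at least 100 CPM in skin and at least 1000 times their mean flesh level, both lines weighted equally. Their summed level was 4.91, 6.07 and 6.84 CPM in the WT flesh libraries and 8.93, 12.3 and 10.6 CPM in the MT flesh libraries. It was 81750 CPM ± 1439 in WT skin and 60775 CPM ± 314 in MT skin (SD, n = 3). The flesh groups did not overlap. The ratio of flesh to skin was fixed by the choice of the list and is no measure of how much skin transcript the flesh libraries held. Of the 108 identifiers 46 had no count in any flesh library, and 6 were higher and 2 lower in MT flesh by the test. Thus 5.56% were higher, beside 3.75% of all tested genes and 1.76% of those below 0.3 CPM in flesh. The list holds no named marker, and the part of skin transcript in the rises of flesh was not tested.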

How the data were processed

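RNA-seq was measured in 12 libraries, 3 for each tissue (flesh, skin) of each line (WT, MT). TRIzol RNA was depleted of ribosomal RNA and enriched on oligo(dT), and NEBNext Ultra libraries were read on a NovaSeq instrument, per the labels' protocols. The authors deposited raw counts per gene and library and the length of each gene, per the file headers. The submitters' processing notes list the tools HISAT2 2.0.5, featureCounts and DESeq2 1.40.2 without their roles. Genome build, annotation, strand setting and how multiply matching reads were treated: not given in the sources used here. Many gene models may be of coding length, since 71.5% of the lengths can be divided by 3. None of the 175826 genes in a table of another assembly (IBA_r1.0) carried these identifiers.

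Tests used edgeR 4.0.16 under R 4.3.3. The filter was filterByExpr (minimum count 10), libraries were scaled by TMM, the 4 groups were fitted together, and MT flesh was set against WT flesh with the quasi-likelihood test and Benjamini-Hochberg adjustment over all tested genes. The SE of a log2 fold change is its size divided by the square root of F, an approximation. Log2 CPM used a prior count of 2. The script was tested on simulated counts with less spread than the common estimate for these libraries. That test checked the code and not the error rate in these data. Named genes are the 2 largest rises and 2 largest falls in mean CPM among genes past the test with non-overlapping flesh groups; identifiers without names allowed no more. Members, classes and lists were chosen with earlier results of these data known. Alternatives were library totals, DESeq2 size factors, DESeq2 1.42.0, other filters, flesh libraries alone, a replicate block and leaving out each flesh library; per-library medians over genes at 10 CPM or more, and counts without number 12, were added after seeing the data. Bounds from 3 counts cover counting error only.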

Additional observations from a re-analysis of the deposited data

Results flagged for a closer look

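For 3 of the 4 named genes the effect of genotype differed between skin and flesh, by edgeR's interaction test adjusted over all tested genes. The skin log2 fold change less the flesh log2 fold change was -1.51 for Ibat.Brg_v3.01BG002710, which was higher in MT flesh and lower in MT skin. It was -3.50 for Ibat.Brg_v3.15DG013190, which was higher in MT in both tissues and more so in flesh. It was 0.66 for Ibat.Brg_v3.15DG012420, which was lower in MT flesh and had a log2 fold change of 0.00 in skin (adjusted p = 1).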

How the results depend on the processing

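All 4 named genes kept their direction and passed the test under every alternative run. DESeq2 called 6030 genes, 4202 higher and 1828 lower (69.7% higher). The flesh libraries alone gave 3582 higher and 1896 lower (65.4% higher), library totals alone 1708 lower (58.6% higher), and no low-count filter 1740 lower (69.3% higher); the cause was not tested. Leaving out 1 library gave 2827 to 2978 genes, 2310 to 2437 higher and 507 to 667 lower, 77.6% to 82.1% higher, on fewer libraries. Without number 12 the higher share was 77.3%. DESeq2 size factors in edgeR changed none of these by more than its limit. No shared deviation was seen between WT and MT flesh libraries of the same replicate number. Their correlations of deviations ran from -0.067 to 0.0056 over genes at 10 CPM or more, and those of other-numbered pairs from -0.020 to 0.078. With 3 libraries per group this cannot tell whether the samples were paired. A fit with the replicate block gave 3420 genes, 2658 higher and 762 lower (77.7% higher). No gene past the test in both fits changed direction under any alternative. Depth limits what low levels show: below 0.3 CPM no difference under 1.84 log2 units passed the test.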
